A study of Homo sapiens with 8 samples.

Results

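SNAI1, SNAI2, TWIST1, TWIST2, ZEB1 and ZEB2 are the core transcription factors of the epithelial-mesenchymal transition (EMT), the programme by which epithelial cells loosen their junctions and take on a motile, fibroblast-like state. All probes whose platform annotation gave 1 of these 6 symbols were taken, which were 8 of the 47231 probes on the array, with 2 each for SNAI2 and ZEB2 and 1 for each other gene. Expression had been measured on Illumina BeadChips in 2 ovarian cancer cell lines, A2780 and SKOV3, held at 46 °C (hyperthermia) or 37 °C (control). The groups were A2780 at 46 °C, A2780 at 37 °C, SKOV3 at 46 °C and SKOV3 at 37 °C, with 2 arrays in each and 8 in all. The labels give neither the length of the exposure nor the time of RNA collection. Nothing in them shows that both samples in a group were grown separately, so the p-values measure the spread between these samples, which may be technical.

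These factors are repressors and activators that meet on a short DNA word, the E-box. SNAI1 (Snail) and SNAI2 (Slug) are zinc finger proteins that bind it and shut off E-cadherin (CDH1) and other junction genes. TWIST1 and TWIST2 are basic helix-loop-helix proteins that bind E-boxes as dimers with E proteins such as TCF3 and TCF4, in competition with the ID proteins, and ZEB1 and ZEB2 carry clusters of zinc fingers at both ends and recruit corepressors such as CTBP1. In carcinoma cells these factors are studied for invasion and drug resistance, and in mesoderm and neural crest they act in normal development.

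The signal of a probe is a brightness in arbitrary units. Values below are log2 intensities after background correction and quantile normalization, and a probe counted as above background on an array where its signal passed the 99th percentile of that array's estimated background. Median signals were 114 to 144 across the 8 arrays, and 36.9% to 41.9% of probes were above background. The highest share belonged to A2780 at 37 °C replicate 2, whose upper quartile signal was 317 against 181 to 243 on the other 7 arrays. The heat shock genes HSPA1A, HSPA6 and DNAJB1 and the immediate early gene FOS rose at 46 °C in both lines, by 2.90 to 7.26 on the log2 scale in A2780 and by 3.26 to 7.14 in SKOV3. The markers chosen for ovarian cancer lines went partly against the label. PAX8, WT1, MUC16, WFDC2 and KRT8 were not above background on any of the 8 arrays. KRT18 was above background on the 4 arrays labelled SKOV3 and no other. EPCAM, an epithelial adhesion molecule, was above background on 7 of 8 arrays and higher in SKOV3, by 1.23 ± 0.15 at 46 °C and 1.20 ± 0.15 at 37 °C (SE; limma adjusted p = 9.17e-06 and 1.01e-05), and was called under all 23 alternatives. ERBB2, which is amplified in SKOV3 cells as commonly described, averaged 9.28 ± 0.05 at 46 °C and 9.47 ± 0.03 at 37 °C in cells labelled SKOV3, against 9.03 ± 0.10 and 9.37 ± 0.17 in cells labelled A2780 (SD, n = 2 each). On this probe, ILMN_2352131, the difference at 37 °C was 0.10 ± 0.13 (SE, limma adjusted p = 0.771). Its direction turned with median scaling (-0.44), without between-array normalization (-0.57) and with median scaling without the brightest array (-0.14), and none of the 23 alternatives gave a call (lowest adjusted p = 0.0606). The other ERBB2 probes, ILMN_1717902 and ILMN_1728761, were not above background on any array. In what follows, A2780 and SKOV3 stand for cells so labelled.

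The E-box form CAGGTG, bound by SNAI and ZEB proteins and read as CACCTG from the opposite strand, was searched in RefSeq promoter windows on GRCh38.p14, each reaching from 250 bases before to 50 bases after a transcription start. Among the 6 genes, TWIST2, ZEB1 and ZEB2 had a window, and SNAI1, SNAI2 and TWIST1 had none and were not searched. Of the 3 genes searched, the word was found only at ZEB1, which had 7 windows against 1 each for TWIST2 and ZEB2. The first ZEB1 window held 1 match and the third 3. A list of 35 epithelial genes was chosen as targets of these factors, which was not tested here. Of its 17 genes with a window, 13 held the word in at least 1 window, among them AP1M2, with 3 matches. The word was present in 20.6% of all 35116 windows of this length and in at least 1 window of 24.1% of 27305 genes. The list was chosen as targets of factors that bind this word, so its share cannot be read against that of all genes. CDH1 was among the listed genes without a window. A match is a description of letters and not a measured binding site. Both windows are shown on the strand of the gene with the matches in capitals: ZEB1 because it is the member whose window holds the word, at chr10:31318966-31319265 on the plus strand, and AP1M2, the adaptor subunit of epithelial membrane sorting described with the line difference, at chr19:10587263-10587562 on the minus strand.
ZEB1: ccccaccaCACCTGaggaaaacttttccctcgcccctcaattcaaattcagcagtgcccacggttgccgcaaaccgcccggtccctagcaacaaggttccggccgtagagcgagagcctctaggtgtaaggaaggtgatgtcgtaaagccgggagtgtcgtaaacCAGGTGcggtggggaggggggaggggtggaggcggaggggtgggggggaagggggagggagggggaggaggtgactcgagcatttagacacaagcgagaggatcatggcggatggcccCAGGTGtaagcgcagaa
AP1M2: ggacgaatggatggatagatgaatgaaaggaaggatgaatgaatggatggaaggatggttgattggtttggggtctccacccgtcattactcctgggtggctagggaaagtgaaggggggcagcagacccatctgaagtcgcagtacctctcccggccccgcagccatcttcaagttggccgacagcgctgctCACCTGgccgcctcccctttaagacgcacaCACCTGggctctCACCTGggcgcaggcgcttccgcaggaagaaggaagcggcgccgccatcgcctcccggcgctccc

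At 46 °C SNAI1 rose in both lines and TWIST1 fell in A2780, while SNAI2, TWIST2, ZEB1 and ZEB2 did not pass the test in either line. In A2780, 2 of the 6 genes were called (1 higher, 1 lower), against a background of 3.24% of all 20046 genes at their brightest probe (1.62% higher and 1.63% lower). In SKOV3 it was 1 of 6, higher, against 2.2% of all genes (1.05% higher and 1.15% lower). Between lines, SNAI2 and TWIST1 were far lower in SKOV3 at both temperatures.

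**Figure D1:**
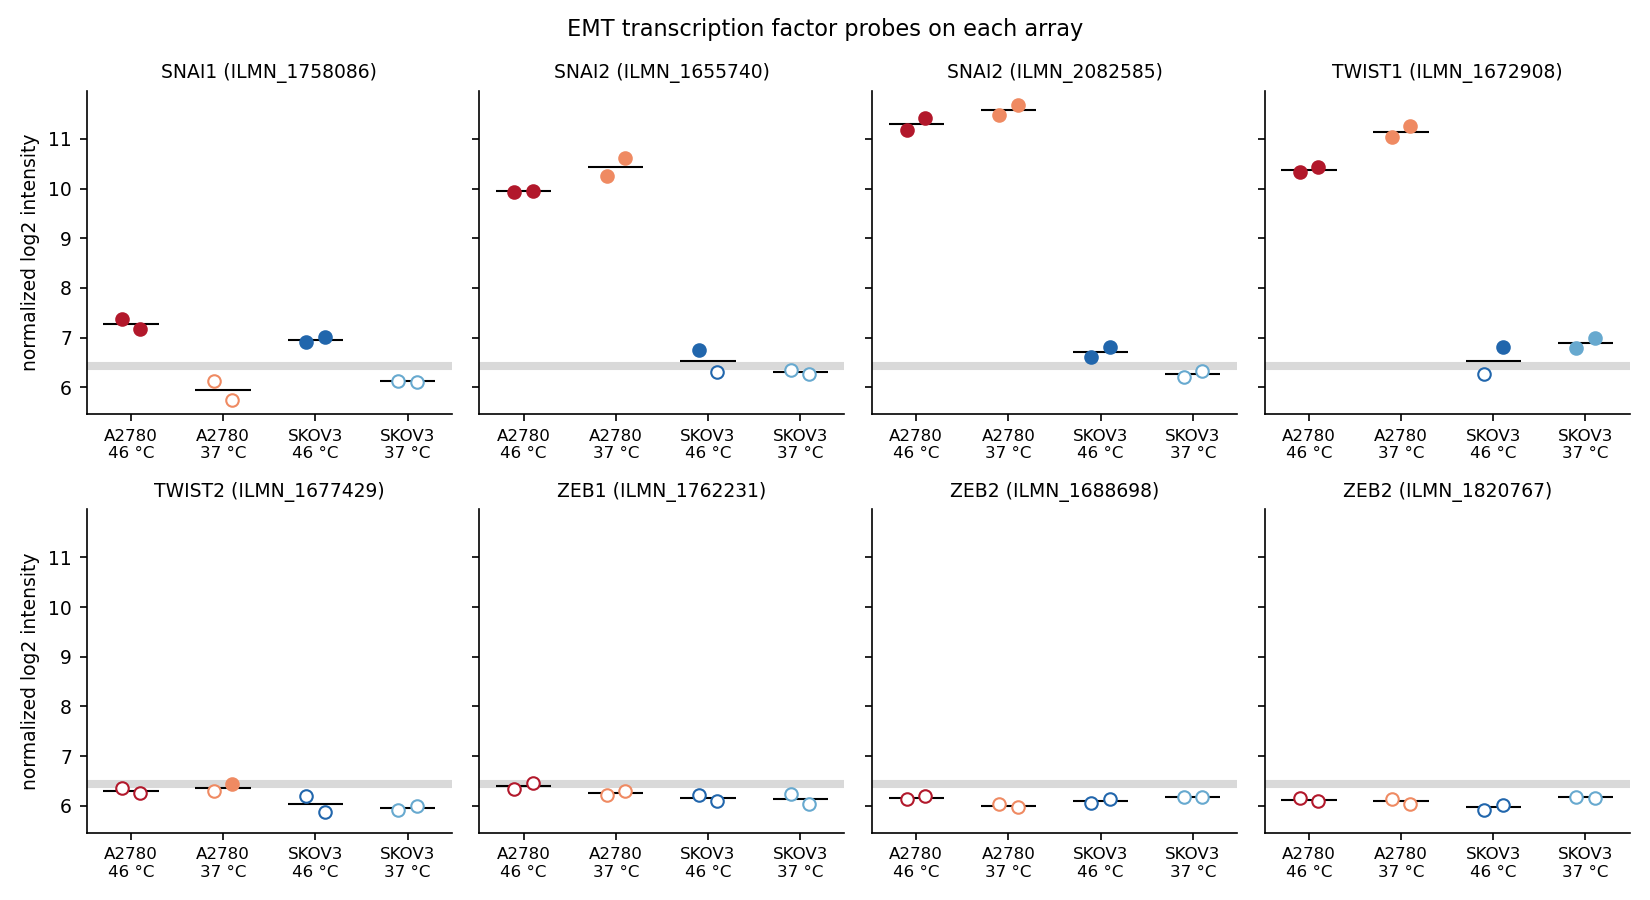
Normalized log2 intensity (vertical axis) of the 8 probes on each array, by group along the horizontal axis. Points are single arrays, filled where above background, bars are means of 2 arrays, and the grey band is the range over arrays of the lowest level above background (6.37 to 6.49); SNAI1 is filled in the 46 °C groups and open at 37 °C, and SNAI2 and TWIST1 stand near 10 to 11.7 in A2780 and below 7 in SKOV3.

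SNAI1, the Snail repressor and an early responder to many stimuli, had signals of 217 and 165 in A2780 at 46 °C and of 129 and 114 at 37 °C. On the normalized log2 scale these were 7.38 and 7.17 at 46 °C, against 6.13 and 5.75 at 37 °C. Both 46 °C arrays lay above background and above both 37 °C arrays, which were not above background. The change was 1.33 ± 0.14 (SE; 95% interval 1.04 to 1.63; limma adjusted p = 8.78e-06), from means of 7.27 ± 0.15 and 5.94 ± 0.26 (SD, n = 2 each). Under the reported processing SNAI1 was at least 1.83-fold higher at 46 °C. The lower bound sets the mean at 46 °C against the lowest level above background on each 37 °C array. Every fold given as at least is such a bound. It holds for the reported processing only, and some alternatives gave smaller changes. The size of the SNAI1 change depended on the background correction. It was 0.87 with the authors' log2 values and 2.17 with a normexp offset of 16, and the adjusted p ranged from 1.22e-06 to 0.00213 over 23 alternatives.

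In SKOV3, SNAI1 signals were 162 and 171 at 46 °C and 118 and 115 at 37 °C, or 6.90 and 7.01 against 6.13 and 6.10 on the normalized log2 scale. The order was the same as in A2780: both 46 °C arrays above background, both 37 °C arrays below it, with no overlap. The change was 0.84 ± 0.14 (SE; 95% interval 0.54 to 1.14; limma adjusted p = 0.00235), at least 1.40-fold under the reported processing. The call was lost with median scaling (adjusted p = 0.0542), without between-array normalization (0.111), without SKOV3 at 37 °C replicate 2 (0.0591) and, by construction, under a minimum change of 2-fold, and the change was 0.54 with the authors' values and 1.34 with an offset of 16. SNAI1 signals at 46 °C were only 1.17 to 1.48 times the background level of their arrays, so the level is close to the detection limit.

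The rise in SKOV3 minus the rise in A2780 was -0.50 ± 0.20 (SE; 95% interval -0.92 to -0.07; unadjusted p = 0.0238, limma adjusted p = 0.607), so the responses were not shown to differ. Of all 47231 probes, 0.0974% were called in this comparison (46 probes, with 3489 at an unadjusted p under 0.05), and none of the 8 EMT factor probes were. The lines themselves did not differ in SNAI1 beyond the test: SKOV3 minus A2780 was -0.32 ± 0.14 at 46 °C (SE; limma adjusted p = 0.209) and 0.18 ± 0.14 at 37 °C (adjusted p = 0.584). Both 46 °C groups thus lay above both 37 °C groups, and groups of the same temperature did not differ beyond the test. The 37 °C groups cannot be ranked, as SNAI1 was not above background on any of their arrays.

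TWIST1, a regulator of mesoderm that marks mesenchymal cells, had signals of 1370 and 1220 in A2780 at 46 °C, against 2510 and 3750 at 37 °C. Normalized values were 10.33 and 10.43 at 46 °C, against 11.04 and 11.26 at 37 °C, with no overlap. TWIST1 thus fell by 0.77 on the log2 scale (SE 0.16; 95% interval -1.11 to -0.44; limma adjusted p = 0.0112), a 1.71-fold difference. The call was lost without A2780 at 37 °C replicate 2, the brightest array (adjusted p = 0.107), without A2780 at 46 °C replicate 1 (0.184) or replicate 2 (0.0863), with an offset of 16 (0.296) and, by construction, under a minimum change of 2-fold. With median scaling the change was -1.17 and without normalization -1.27, where the median of all genes itself moved to -0.124 and -0.229.

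In SKOV3, TWIST1 had signals of 127 and 155 at 46 °C and of 154 and 163 at 37 °C. Only replicate 2 at 46 °C and both 37 °C arrays were above background, and the normalized values of 6.26 and 6.80 at 46 °C overlapped those of 6.78 and 6.98 at 37 °C. The change of -0.35 ± 0.16 (SE; 95% interval -0.69 to -0.02) had an adjusted p of 0.458, and the difference between the responses was 0.42 ± 0.23 (SE; adjusted p = 0.728 in limma).

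SNAI2, the Slug repressor of neural crest and carcinoma cells, was bright in A2780 on both probes. Probe ILMN_2082585 read 11.18 and 11.43 at 46 °C against 11.48 and 11.68 at 37 °C, and ILMN_1655740 read 9.93 and 9.96 against 10.26 and 10.61. The 46 °C arrays were below the 37 °C arrays on both probes, but neither passed: the changes were -0.27 ± 0.14 (SE; adjusted p = 0.443) and -0.49 ± 0.15 (adjusted p = 0.119) by limma. Both passed with median scaling (-0.59 and -0.93, adjusted p = 0.0225 and 0.0059) and without normalization (-0.69 and -1.04, adjusted p = 0.0236 and 0.012), settings in which the median gene also moved down. ILMN_1655740 passed too with median scaling without the brightest array (-0.61, adjusted p = 0.03) and without A2780 at 37 °C replicate 1 (-0.67, adjusted p = 0.0301).

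In SKOV3, SNAI2 was near background. ILMN_2082585 read 6.61 and 6.80 at 46 °C, both above background, against 6.20 and 6.33 at 37 °C, neither above it. Its change was 0.44 ± 0.14 (SE; 95% interval 0.15 to 0.73; limma adjusted p = 0.163). ILMN_1655740 was above background on 1 of the 4 SKOV3 arrays, and its change was 0.22 (adjusted p = 0.71). On ILMN_2082585 the 46 °C arrays thus lay above the 37 °C arrays in SKOV3 and below them in A2780, and the difference of the responses was 0.72 ± 0.19 (SE; unadjusted p = 0.00168), which did not pass after adjustment (limma adjusted p = 0.364). ILMN_1655740 gave 0.71 ± 0.22 (unadjusted p = 0.00409, adjusted p = 0.447).

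TWIST2, a relative of TWIST1 studied mostly in skin and mesenchyme, was above background on 1 of 8 arrays, A2780 at 37 °C replicate 2. Its normalized values lay between 5.87 and 6.44. The heat changes were -0.06 in A2780 and 0.07 in SKOV3 (limma adjusted p = 0.927 and 0.932). ZEB1 and ZEB2 were not above background on any array, with normalized values of 6.04 to 6.45 for ZEB1 and 5.92 to 6.19 over the 2 ZEB2 probes. Their changes at 46 °C lay between -0.20 and 0.17, with 95% intervals between -0.46 and 0.42. No fold is given where both groups are below background.

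**Figure D2:**
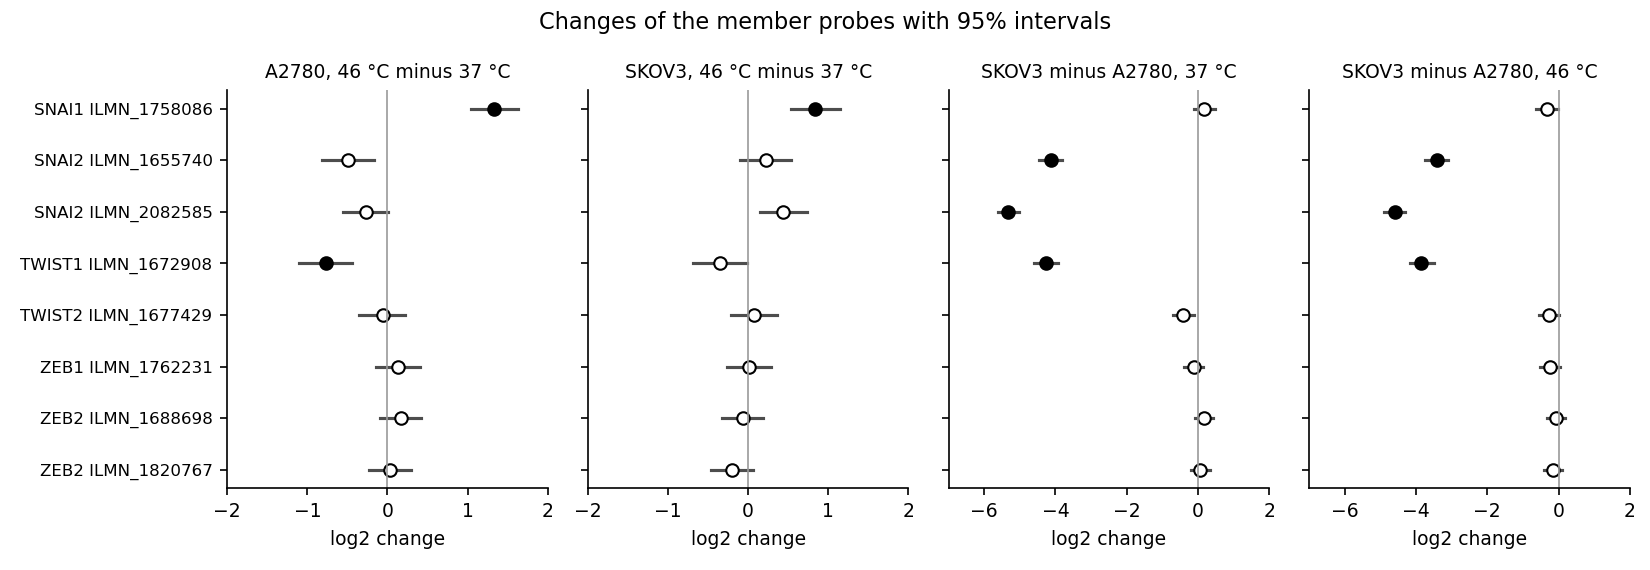
Log2 change with its 95% interval (horizontal axis) for each of the 8 probes in the 2 temperature comparisons and the 2 line comparisons, filled where the adjusted p is under 0.05. The horizontal scale of the line panels is wider than that of the temperature panels; SNAI1 lies to the right in both temperature panels, TWIST1 to the left in A2780, and SNAI2 and TWIST1 far to the left in both line panels.

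SNAI2 and TWIST1 divided the lines. At 37 °C ILMN_2082585 averaged 6.26 ± 0.09 in SKOV3 and 11.58 ± 0.14 in A2780 (SD, n = 2 each). SNAI2 was lower in SKOV3 with a difference of -5.32 ± 0.14 on the log2 scale (SE; limma adjusted p = 1.9e-15), at least 34.5-fold under the reported processing. Over the alternatives the difference was -6.15 to -4.59. The other SNAI2 probe, ILMN_1655740, gave -4.13 ± 0.15 (limma adjusted p = 3.17e-13), at least 15.6-fold lower under that processing, and -4.91 to -3.46 over the alternatives. TWIST1 averaged 6.88 ± 0.14 in SKOV3 and 11.15 ± 0.16 in A2780, a difference of -4.27 ± 0.16 (SE; limma adjusted p = 3.53e-13) or 19.3-fold. In total 2 of 6 genes were called, both lower, against 19.4% of all genes at 37 °C (10.2% higher and 9.14% lower) and 15.6% at 46 °C (7.95% higher and 7.68% lower).

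At 46 °C the same 2 genes were lower in SKOV3. SNAI2 differed by -4.60 ± 0.14 (SE; adjusted p = 1.97e-14), 24.3-fold, on ILMN_2082585, and by -3.42 ± 0.15 (adjusted p = 5.71e-12), 10.7-fold, on the other probe, by limma. Over the alternatives these were -5.16 to -4.04 and -4.06 to -2.85. SNAI2 was close to background in SKOV3, with 2 of 2 arrays above it on ILMN_2082585 and 1 of 2 on the other probe. TWIST1 differed by -3.85 ± 0.16 (SE; adjusted p = 1.9e-12), 14.4-fold, with 1 of 2 SKOV3 arrays above background. These 46 °C and 37 °C differences use separate arrays, and they were called under every alternative run that held the probe. TWIST2 differed by -0.41 ± 0.14 at 37 °C (95% interval -0.70 to -0.12; limma adjusted p = 0.0556), without a call, and passed in 8 of 21 alternatives. For ZEB1 and ZEB2 the line differences were -0.24 to 0.17.

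Most markers of fibroblasts were, like SNAI2 and TWIST1, lower in SKOV3 than in A2780. Of the 6 genes in the list, 5 of which the mesenchymal list also holds, 6 were lower in SKOV3 at 46 °C and 5 at 37 °C, where 7.68% and 9.14% of all genes were lower. Their summed normalized intensity was 759 to 847 in SKOV3 and 11600 to 11700 in A2780 at 46 °C, and 836 to 873 in SKOV3 and 11000 to 11400 in A2780 at 37 °C. Under the reported processing DCN (decorin) was at least 53.3-fold lower in SKOV3 at 37 °C, and its probe was not above background there (limma adjusted p = 5.52e-16). The DCN difference was -6.68 to -5.17 over the alternatives. Leukocyte markers summed to 1160 to 1700 with PTPRC and CD3E never above background, and endothelial markers to 257 to 306, with no call in any comparison. In bulk samples fewer cells of a type and less RNA per cell cannot be told apart, and the part of these markers in the result was not tested.

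The genes with profiles most like each of these factors were found by the root mean square difference over the 8 arrays after centring, among 10864 candidate probes. For SNAI1 these were RAB6B (0.14), SNORA20 (0.14) and FRG2B (0.15). For SNAI2 they were TYRP1 (0.21), PERP (0.25) and UCHL1 (0.27), and for TWIST1 they were PCDH7 (0.16), COL3A1 (0.25) and EOMES (0.28). PCDH7, a protocadherin, averaged 6.38 at 46 °C and 6.62 at 37 °C in SKOV3 and 10.32 and 11.04 in A2780. These are likenesses over 8 arrays and were not tested.

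Upstream, a list of ligands, receptors and other signalling or regulatory genes, among them those of the TGF-beta and growth factor families, had 27 genes with a probe. SMAD7, an inhibitory SMAD, was the 1 gene called at 46 °C, in both lines, beside 3.24% of all genes in A2780 and 2.2% in SKOV3. It averaged 8.28 at 46 °C and 7.64 at 37 °C in A2780 (0.64 ± 0.16 SE, adjusted p = 0.0399), and 8.16 and 7.31 in SKOV3 (0.85 ± 0.16, adjusted p = 0.00682), by limma. The A2780 call was lost in 16 of 23 alternatives, among them without A2780 at 37 °C replicate 2 (adjusted p = 0.42), A2780 at 46 °C replicate 1 (0.46) and either SKOV3 array at 37 °C (0.0698 and 0.0696). The SKOV3 call was lost in 5 of 23, among them without SKOV3 at 37 °C replicate 1 (0.189) and SKOV3 at 46 °C replicate 1 (0.0767). The medians over the list were 0.08 and 0.00, beside 0 and -0.02 over all genes. Between lines at 37 °C 2 were higher in SKOV3 and 6 lower, where 10.2% of all genes were higher and 9.14% lower. Among them were the growth factor FGF2 at 1.28 ± 0.19 (limma adjusted p = 8.43e-05) and the receptor TGFBR2 (-1.22 ± 0.13, adjusted p = 9.6e-07). TGFBR2 was at least 2.12-fold lower under the reported processing, with a difference of -1.71 to -0.86 over the alternatives. Of 10 close relatives of the 6 factors, 8 were never above background and 0 were called at 46 °C in either line. No further EMT-linked factor among 13 was called at 46 °C in either line. In lists this short, 0 calls is close to the share of all genes. Between lines at 37 °C, 1 of these 13 was higher in SKOV3 and 3 lower, beside 10.2% and 9.14% of all genes. PRRX1, a mesenchymal homeobox factor, was higher (1.58 ± 0.17), and RUNX2, SOX4 and TCF4 were lower. Of the 10 relatives, 1 was called, HAND2, higher in SKOV3 (0.52 ± 0.13, limma adjusted p = 0.0118). Its other probe gave -0.07, and the call was lost in 6 of 23 alternatives. For SMAD7 at 46 °C, and for PRRX1 and RUNX2 between lines, the dimmer probe of the gene did not pass.

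Among 25 partners and corepressors the ID genes, whose proteins bind E proteins and block TWIST dimers, had the largest called changes. ID1 averaged 9.99 at 46 °C and 11.40 at 37 °C in A2780 (-1.42 ± 0.15 SE, adjusted p = 9.18e-06), and 10.06 and 12.00 in SKOV3 (-1.94 ± 0.15, adjusted p = 1.59e-07) by limma. ID3 fell by 1.12 in A2780 (SE 0.15, adjusted p = 0.000128) and by 0.99 in SKOV3 (SE 0.15, adjusted p = 0.000647), and the SKOV3 call was lost with an offset of 16 (0.0678). ID2 rose by 0.65 in A2780 (adjusted p = 0.00526), a call lost in 6 of 23 alternatives, among them median scaling (0.44, adjusted p = 0.068), no between-array normalization (0.34, 0.239) and without A2780 at 46 °C replicate 1 (0.0934) or replicate 2 (0.0524). In all, 1 of 25 was higher and 3 lower in A2780, where 1.62% of all genes were higher and 1.63% lower. In SKOV3, where 1.05% of all genes were higher and 1.15% lower, 0 of 25 were higher and 4 lower. The list medians were -0.05 in A2780 and -0.15 in SKOV3. The number lower ranged from 2 to 11 in A2780 over the alternatives and from 1 to 4 in SKOV3, where it was 2 without either A2780 array at 46 °C, either SKOV3 array at 37 °C or SKOV3 at 46 °C replicate 1. Of 21 genes that act on the stability or location of these proteins, 1 was called at 46 °C in A2780 and 0 in SKOV3. Of all genes, 3.24% were called in A2780 and 2.2% in SKOV3, so these counts are close to the share of all genes. The called gene was the ubiquitin ligase subunit FBXL5 (-0.72 ± 0.13, with its other probes not passing). Its call was lost without A2780 at 37 °C replicate 2 (-0.61) and with an offset of 16 (limma adjusted p = 0.0808).

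Downstream, the epithelial genes had no call for temperature. Of 33 with a probe, 0 were called in A2780 and 0 in SKOV3, with medians of 0.03 in each line, and 16 were never above background. Of all genes, 3.24% were called in A2780 and 2.2% in SKOV3, so 0 of 33 is close to the background share. E-cadherin (CDH1) averaged 6.06 at 46 °C and 6.03 at 37 °C in A2780, not above background on any array. Between lines, 5 of 33 were higher and 1 lower in SKOV3 at 37 °C, with a median of 0.02 beside 0.01 over all genes, of which 10.2% were higher and 9.14% lower. The share of the list called, 6 of 33, was thus close to the 19.4% of all genes. Under the reported processing CLDN1, a tight junction protein, was at least 41.5-fold higher (5.79 ± 0.15, limma adjusted p = 1.45e-15), and AP1M2 at least 4.95-fold (2.67 ± 0.15, adjusted p = 8.51e-11). Over the alternatives these differences were 4.94 to 6.89 and 2.00 to 3.61. KRT18, a simple epithelial keratin, was at least 2.60-fold higher under the reported processing (1.78 ± 0.15, and 1.23 to 2.66 over the alternatives). The CLDN1 window held no CAGGTG.

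Of 30 mesenchymal genes, 2 were called in A2780 at 46 °C, both higher, and 0 in SKOV3, beside 3.24% and 2.2% of all genes. COL1A1, a fibrillar collagen, changed by 0.84 ± 0.14 (SE; limma adjusted p = 0.00163), and lost the call without A2780 at 46 °C replicate 1 (0.0521). CDH2 (N-cadherin) changed by 0.57 ± 0.14 (adjusted p = 0.0381), lost the call in 13 of 23 alternatives, among them without A2780 at 37 °C replicate 2 (0.456), A2780 at 46 °C replicate 1 (0.308) or 2 (0.16) and either SKOV3 array at 37 °C (0.0684 and 0.0682), and turned to -0.07 without between-array normalization. Between lines at 37 °C 5 of the 30 were higher and 11 lower in SKOV3, with a median of -0.17, against 10.2% and 9.14% of all genes. The calcium-binding protein S100A4 (-5.74 ± 0.13) and the matrix protein LUM (-5.87 ± 0.14, with 1 of 2 SKOV3 arrays above background) were lower, as was DCN, whose lower bound is given above, and POSTN (periostin) was higher, 12.39 in SKOV3 and 7.35 in A2780 (5.04 ± 0.15, adjusted p = 2.02e-14). CDH2 was also higher in SKOV3 (3.03 ± 0.14), while vimentin (VIM) averaged 14.07 in each line at 37 °C.

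**Figure D3:**
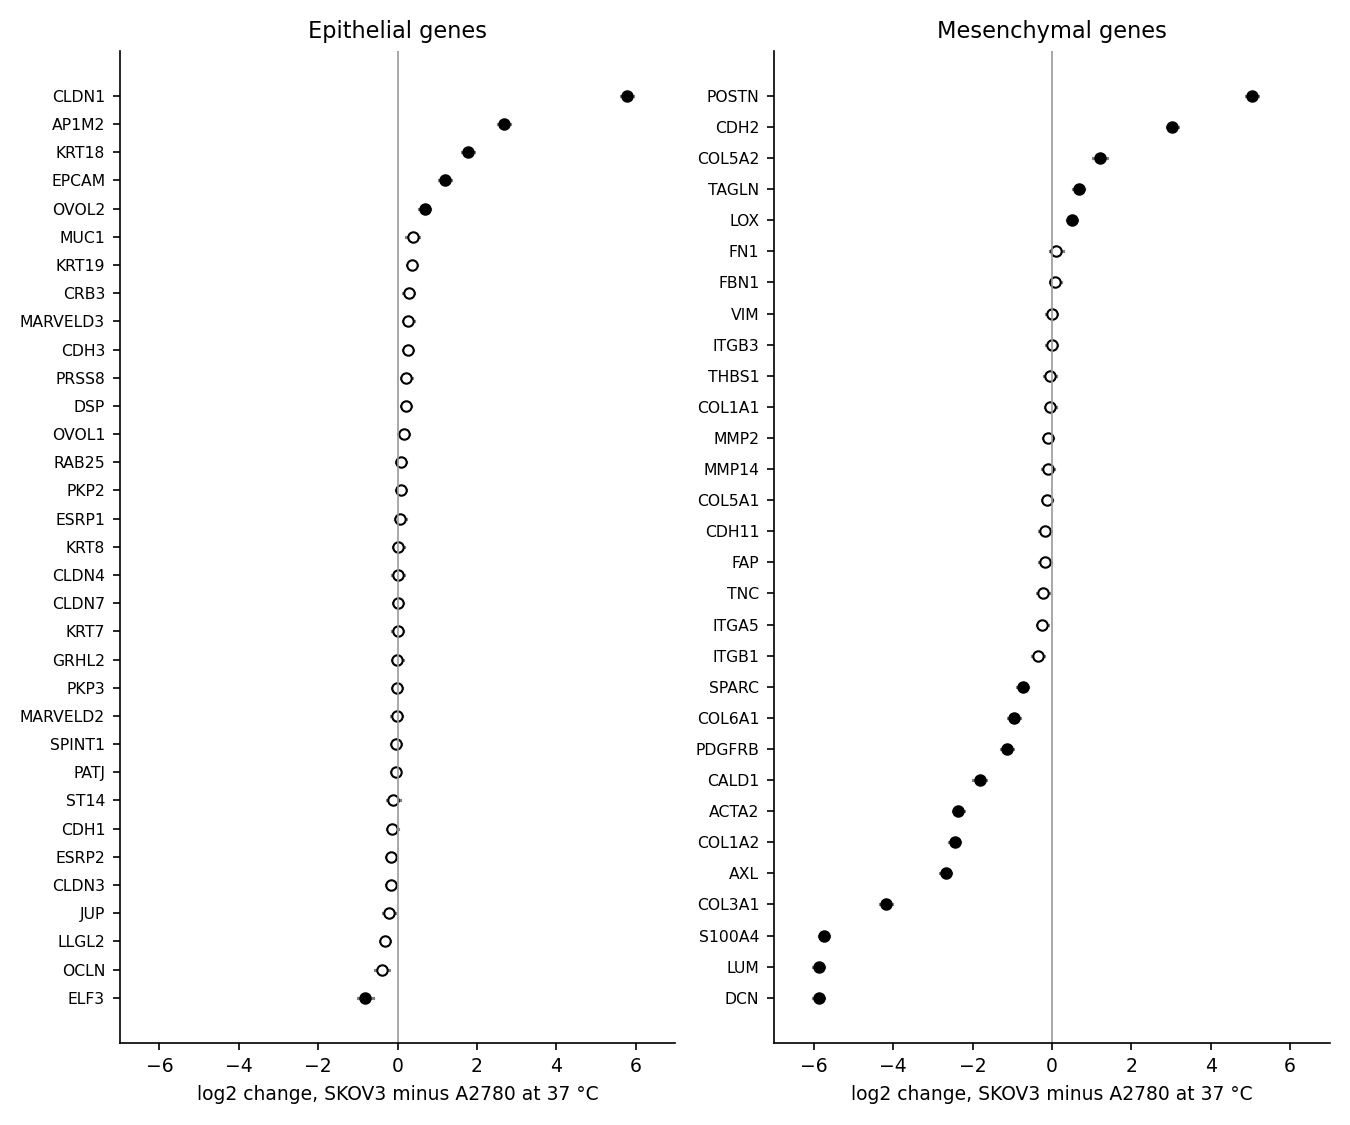
Log2 difference SKOV3 minus A2780 at 37 °C (horizontal axis) for each epithelial and mesenchymal gene with a probe, ordered by size, with lines of 1 SE and filled points where the adjusted p is under 0.05. The epithelial panel has 5 genes to the right and 1 to the left that are filled, and the mesenchymal panel 5 and 11.

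The antisense RNA of ZEB1, ZEB1-AS1, is not a member and was picked after its values were seen. It was above background on all 8 arrays of 1 probe while ZEB1 was above it on none. That probe averaged 7.64 ± 0.11 at 46 °C and 8.09 ± 0.19 at 37 °C in SKOV3, against 6.99 ± 0.09 and 7.43 ± 0.02 in A2780 (SD, n = 2 each), with a line difference at 37 °C of 0.65 ± 0.13 (SE; limma adjusted p = 0.00184) that was lost in 5 of 23 alternatives. These were median scaling (0.21, adjusted p = 0.516), no between-array normalization (0.09, 0.842), median scaling without the brightest array (0.41, 0.123), leaving out SKOV3 at 37 °C replicate 1 (0.0611) and, by construction, a minimum change of 2-fold. The other ZEB1-AS1 probe, ILMN_3249620, gave 0.32 ± 0.14 at 37 °C (SE; limma adjusted p = 0.182), without a call. The heat change of the first probe, ILMN_1829989, was -0.45 in each line and did not pass, but in A2780 it passed with median scaling (-0.87, adjusted p = 0.00434), without normalization (-0.98, 0.00926) and with median scaling without the brightest array (-0.67, 0.0178).

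**Figure D4:**
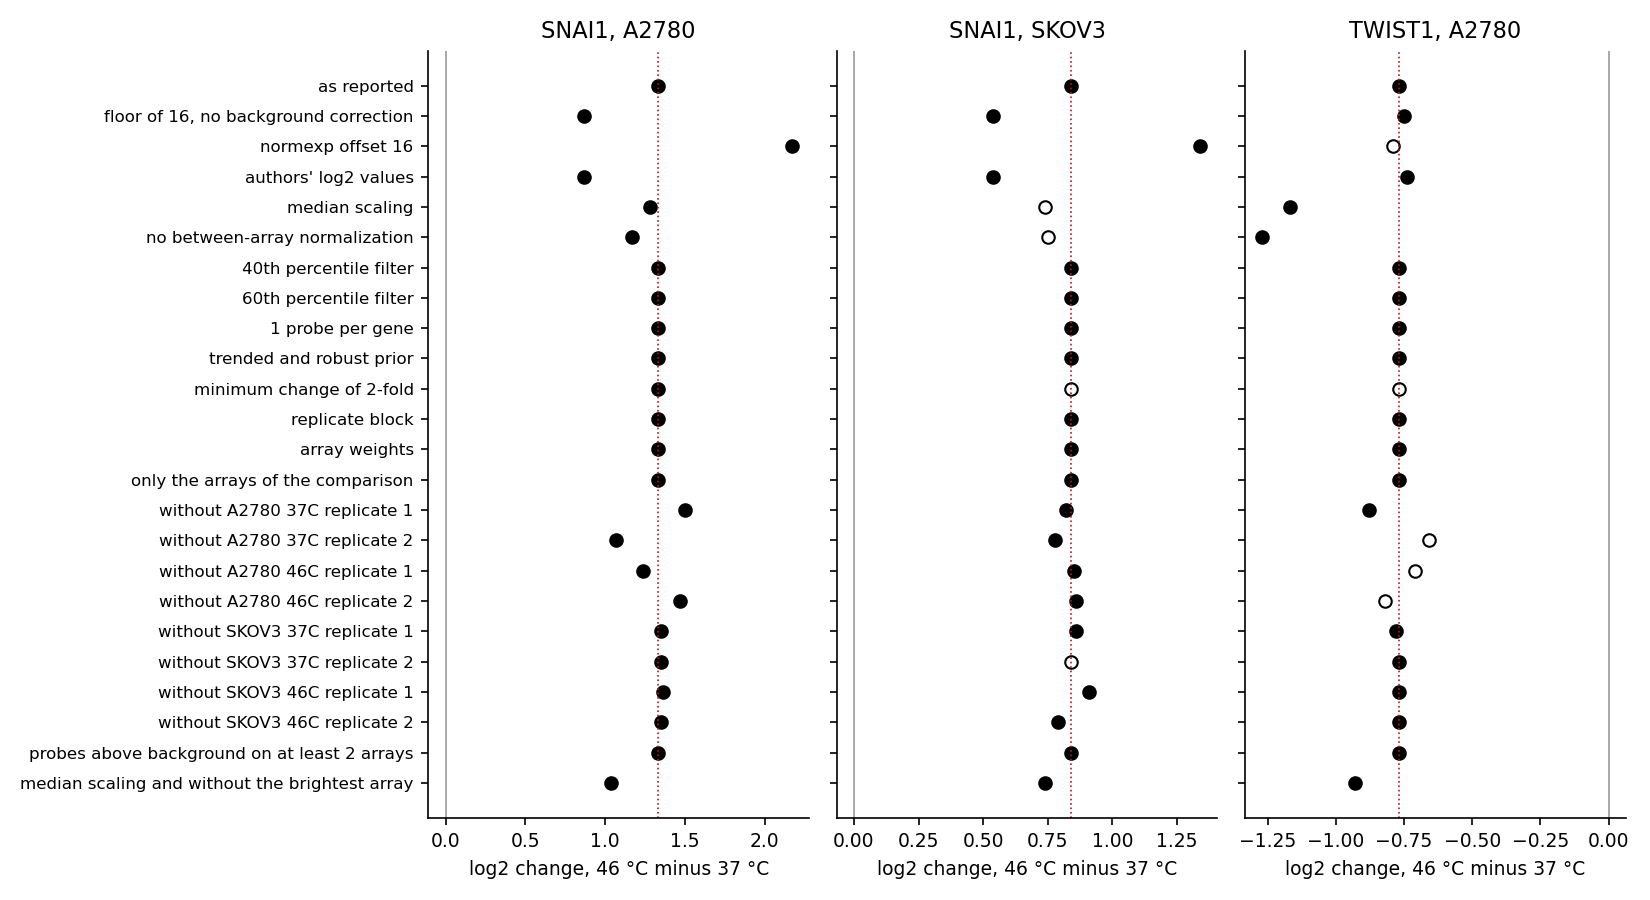
Log2 change at 46 °C minus 37 °C (horizontal axis) of SNAI1 in A2780, SNAI1 in SKOV3 and TWIST1 in A2780 under each processing setting (rows), filled where it passed the test, with the dotted line at the reported value. All SNAI1 values lie above 0 and all TWIST1 values below it, and SNAI1 in SKOV3 is open at 4 settings and TWIST1 at 5.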

How the data were processed

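Total RNA from 8 samples of 2 cell lines was hybridised to Illumina BeadChips. The deposited signal table holds linear probe intensity exported by the authors with BeadStudio, per the labels; its version is not given in the sources used here. A second deposited table holds the authors' log2 values of the same arrays, whose scale, centring and normalization steps the labels do not state; they lie within 0.0246 of quantile-normalized log2 signals.

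The intensities were background-corrected with normexp (offset 50) and quantile-normalized on the log2 scale in limma 3.58.1 (R 4.3.3). A model of 4 groups was fitted to all 8 arrays and 47231 probes without a filter (4 residual and 14 prior degrees of freedom). P-values were two-sided and adjusted by Benjamini-Hochberg over all probes, with a threshold of 0.05. Background on each array was the 99th percentile of a normal centred on the mode of its log2 signals. Probe names came from the platform annotation (30113 with 1 symbol, 8 with several and 17110 unlisted). In the lists and in the shares of all genes, each gene was read at its brightest probe, of 20046 genes. A member counted as called where at least 1 of its probes passed.

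The members and lists were chosen with earlier results of these data known. Every member was named with all probes, the 3 nearest profiles for members with a group range of at least 1 on the log2 scale, and up to 4 genes with the largest called change from each list; ZEB1-AS1 was added after its values were seen. Which promoter windows to show was decided after seeing the data too. No pairing by replicate number was used. The fit was tried on simulated log2 values with changes added to brighter probes only. That trial did not cover the background correction or the normalization. The 2 arrays per group limit the precision, and all intervals cover the spread of these arrays only.

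The alternatives changed the background correction, the normalization, the filter, the probes tested, the prior, the threshold, the block, the array weights, the arrays in the fit and each array left out in turn. A filter on background and median scaling without the brightest array were added after seeing the data.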

Additional observations from a re-analysis of the deposited data

How the results depend on the processing

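Over 23 alternatives (22 for the difference of responses), the number of the 6 genes called in A2780 at 46 °C was 2 as reported, 1 with a normexp offset of 16 and with a minimum change of 2-fold, and 1 to 3 when each array was left out. In SKOV3 it was 1 as reported, 0 with median scaling, without between-array normalization and with a minimum change of 2-fold, and 0 to 1 when each array was left out. The 2 genes called between lines at 46 °C stayed at 2 when each array was left out, and at 37 °C the count was 2 to 3. After subtracting group means, same-numbered arrays correlated at -0.242 to 0.234 over the 6 pairs of groups: 0.106 in A2780 and -0.21 in SKOV3 between temperatures, and 0.234 at 46 °C and 0.165 at 37 °C between lines. With 2 arrays a group and no label that ties them, the numbers did not serve as pairs; with them as a block (replicate block) 556 probes were higher and 525 lower in A2780, SNAI1 changed by 1.33 in A2780 (adjusted p = 1.4e-05) and 0.84 in SKOV3 (0.00269), and TWIST1 by -0.77 (0.00399), and no other member's call changed. Among called genes outside the members the sign changed for CDH2 in A2780 (-0.07 without between-array normalization), and, between lines at 37 °C, ID1 (-0.03) and SUZ12 (-0.04) without it, and SUZ12 (-0.11) and SIAH1 (0) with median scaling without the brightest array. Over all probes the calls in A2780 at 46 °C were 551 higher and 517 lower as reported, but 326 and 6020 with median scaling and 191 and 6746 without normalization; between lines at 37 °C 2991 and 3155 became 1217 and 7718, and 803 and 8802. Median scaling without the brightest array gave 266 and 2105, and 1320 and 5293. In SKOV3 351 and 346 became 156 and 77 without normalization, and for the difference of responses 12 and 34 became 8 and 3 with median scaling, 4 and 0 without normalization and 70 and 18 with median scaling without the brightest array. Across settings the calls numbered 216 to 6937 in A2780, 179 to 916 in SKOV3, 1440 to 9605 and 1172 to 5444 between lines at 37 °C and 46 °C, and 0 to 433 for the difference of responses. The cause of these shifts was not tested. SNAI1 sits close to background in both lines, which limits its fold, and levels of TWIST2, ZEB1 and ZEB2 at background cannot show small changes.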
